A study of Sus scrofa with 2 samples.

Results

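The 4 genes of the nuclear factor I family, NFIA, NFIB, NFIC and NFIX, were followed across the cell types and olfactory zones of the newborn pig olfactory mucosa. They were found by symbol in both tables of raw counts, which list 25880 genes each, and all 4 were present. The study sequenced single nuclei from frozen olfactory neuroepithelium of 1 newborn wild type piglet and 1 newborn CFTR knockout piglet (Sus scrofa), so each library stands for 1 animal. CFTR encodes the epithelial chloride and bicarbonate channel that is lost in cystic fibrosis, and the study's title names olfactory defects and progenitor proliferation as its subject. With 1 library per genotype no difference was tested, and a difference between the libraries has no replicate check.

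Nuclear factor I proteins are site-specific DNA-binding factors that bind, as dimers, a palindromic sequence element through a conserved N-terminal domain and activate or repress nearby genes. They are known for roles in glial differentiation, in the timing of neuronal maturation and in stem cells of several epithelia. In the mouse olfactory epithelium, NFIA, NFIB and NFIX have been described as graded between zones, the bands of epithelium whose neurons choose from different sets of odorant receptor genes, with more of them in ventral than in dorsal zones, and as taking part in that zonal choice.

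Filtering left 4536 wild type and 5761 knockout nuclei. Their median depths were 2966 and 2093 unique molecular identifiers (UMIs, each counting 1 captured transcript). CFTR itself stood at 88.9 counts per 1000000 UMIs (CPM) in the wild type library and 12.7 CPM in the knockout library. The libraries shared 8 cell barcodes. Their makeup differed, with 32 wild type and 473 knockout nuclei in the respiratory ciliated-like class, so the genotype, the animal and the piece of mucosa taken cannot be told apart. Nuclei were grouped by clustering without the NFI genes, and clusters were named "-like" from marker genes. Clusters 5, 9 and 19 met no name and are given by number. Cluster 22 met the marker rule for respiratory secretory cells, but its 10 leading genes held none of those markers and 1 of horizontal basal cells, so it too is given by number. Clusters 5 and 9 are shallow, with median depths of 815 and 535 UMIs. A level is the sum of a gene's UMIs over a class per 1000000 UMIs of that class. It is given with an exact Poisson 95% interval, which covers counting error only, not the spread between animals. Levels of different NFI genes were not compared with each other.

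NFIA, a factor known for the switch of neural progenitors to glia, was high in supporting, glandular and glial nuclei and low in mature neurons. In sustentacular-like nuclei, the supporting cells of the epithelium, NFIA stood at 1908 CPM in the wild type library (1853 to 1963, 745 nuclei) and 1419 CPM in the knockout library (1364 to 1476, 588 nuclei). Glia-like nuclei, whose markers fit olfactory ensheathing or Schwann cells, held 1745 and 1596 CPM. Bowman gland-like nuclei, the mucus-secreting glands under the epithelium, held 1752 and 1354 CPM, and cluster 22 held 1804 and 1209 CPM. At the other end, mature olfactory neuron-like nuclei held 275 CPM (258 to 292, 843 nuclei) and 139 CPM (126 to 154, 864 nuclei). The ratio of sustentacular-like to mature neuron-like nuclei was 2.80 on the log2 scale in the wild type library (interval 2.70 to 2.90) and 3.35 in the knockout library (3.19 to 3.51). Both intervals lay far above 0.

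Between those ends, NFIA lay in the wild type library at 1325 CPM in horizontal basal-like nuclei, the reserve stem cells, at 1268 CPM in the globose basal or neuronal precursor-like class (called precursor-like below), at 1079 CPM in endothelial-like and at 1059 CPM in fibroblast-like nuclei. The knockout library gave 696, 775, 1316 and 965 CPM for the same classes. Horizontal basal-like and precursor-like nuclei thus stood lower in the knockout library and endothelial-like nuclei higher. Macrophage-like nuclei, of blood origin, held 498 CPM in wild type and 749 CPM in knockout nuclei. Of the neighbours in the order of levels, 12 of 15 pairs in the wild type library and 13 of 16 in the knockout library had overlapping intervals, so most adjacent ranks are not separated. The steps that were separated in both libraries were those into the immature and, in the wild type library, into the mature neurons. In the wild type library the highest level, in sustentacular-like nuclei, was 8.31 times the lowest, in the shallow cluster 5 with its mature neuron markers. In the knockout library the highest, in glia-like nuclei, was 11.5 times the lowest, in mature neuron-like nuclei.

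NFIB, known for lung and brain maturation, followed another order, with its highest levels in glands, vessels and connective tissue. Bowman gland-like nuclei held 1560 CPM in the wild type library (1484 to 1638) and 1191 CPM in the knockout library (1106 to 1280). Endothelial-like nuclei held 1249 and 1443 CPM, and fibroblast-like nuclei 1210 and 1302 CPM. Cluster 22, which carried respiratory secretory markers together with the basal gene TP63, held 1325 and 1284 CPM. Glia-like nuclei, near the top for NFIA, held only 438 and 469 CPM of NFIB, and sustentacular-like nuclei 609 and 482 CPM. Mature neuron-like nuclei were again low, at 170 CPM (157 to 184) and 125 CPM (112 to 138), and macrophage-like nuclei lay near them at 184 and 199 CPM. Neighbouring ranks overlapped in 13 of 15 pairs in the wild type and 15 of 16 in the knockout library.

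NFIC, a widely expressed factor known for tooth root formation, differed less between classes than NFIA and NFIB did. It was highest in Bowman gland-like nuclei, at 185 CPM (159 to 213) and 173 CPM (141 to 209), and lay between 91.9 and 99.6 CPM in the sustentacular-like, glia-like and fibroblast-like nuclei of the wild type library. Mature neuron-like nuclei held 47.5 and 50.6 CPM and immature neuron-like nuclei 41.9 and 37.2 CPM. All 15 wild type and all 16 knockout pairs of neighbours overlapped, so neighbouring NFIC levels were not separated. Its highest level was 7.04 and 6.44 times its lowest, but the lowest rest on 1 UMI in cluster 9 and 2 UMIs in cluster 5.

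NFIX, known for keeping neural stem cells quiet, was highest in glia-like and fibroblast-like nuclei in both libraries. Glia-like nuclei held 159 CPM (123 to 203) and 138 CPM (105 to 178), and fibroblast-like nuclei 159 CPM (141 to 178) and 132 CPM (115 to 152). It was close to absent from mature neurons, with 17 UMIs in 843 wild type nuclei (4.72 CPM, 2.75 to 7.56) and 12 UMIs in 864 knockout nuclei (4.27 CPM, 2.21 to 7.47). Its highest level among classes was 33.7 times the lowest in the wild type library and 32.4 times in the knockout library, with the mature neurons lowest in both. All neighbours in the NFIX order overlapped.

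**Figure D1:**
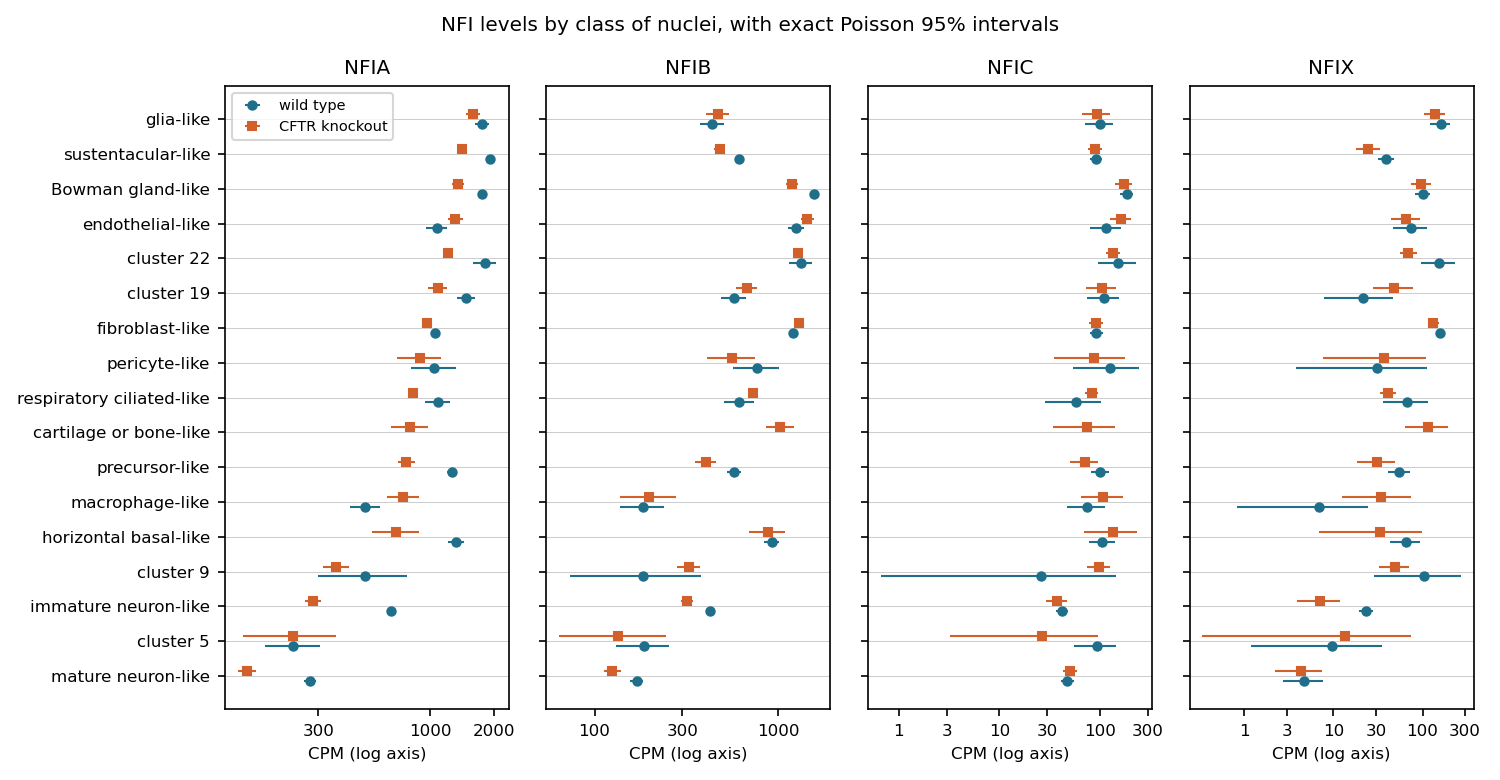
Levels of the 4 NFI genes in CPM (log axis, a separate range per panel) in each class or unnamed cluster with at least 30 nuclei in a library. Circles are the wild type library, squares the CFTR knockout library, and bars exact Poisson 95% intervals. NFIA is high in glia-like, sustentacular-like and Bowman gland-like nuclei, NFIB in Bowman gland-like, endothelial-like and fibroblast-like nuclei, both also in cluster 22, and mature neuron-like nuclei are at or near the low end for all 4.

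The balance of NFIA and NFIB UMIs within a class was compared between classes, and not read as the level of one gene against the other. NFIB made up 20.1% of the NFIA and NFIB UMIs in glia-like nuclei of the wild type library (exact Clopper-Pearson 95% interval 17.5 to 22.9) and 22.7% in the knockout library (20.0 to 25.6). Sustentacular-like nuclei stood close by, at 24.2% and 25.3%. Fibroblast-like nuclei had 53.3% (51.8 to 54.9) and 57.4% (55.8 to 59.1), endothelial-like nuclei 53.7% and 52.3%, and Bowman gland-like nuclei 47.1% and 46.8%. The epithelial supporting cells and the glands, both with much NFIA, therefore differed in their NFIB share in both libraries, with intervals that did not overlap. Immature neuron-like nuclei differed between the libraries, with 39.3% (38.0 to 40.7) in wild type nuclei and 53.0% (50.1 to 55.8) in knockout nuclei. Mature neuron-like nuclei differed in the same direction, with 38.2% (35.8 to 40.6) and 47.2% (43.6 to 50.9).

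**Figure D2:**
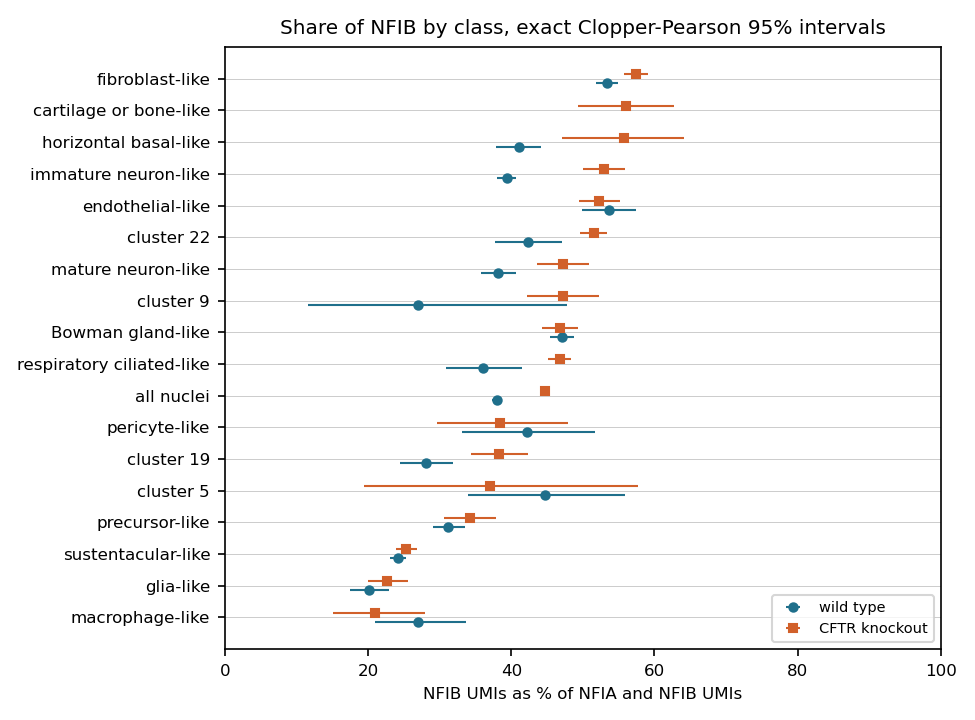
NFIB UMIs as a percentage of all NFIA and NFIB UMIs (x axis) in each class and in all nuclei, with exact Clopper-Pearson 95% intervals. Glia-like, sustentacular-like and macrophage-like nuclei lie lowest and fibroblast-like nuclei high in both libraries, while immature neuron-like nuclei lie at 39.3% in the wild type library (circles) and 53.0% in the knockout library (squares).

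Shares of nuclei with a UMI move with depth, so nuclei were thinned to 1000 UMIs each, which left 4158 wild type and 4436 knockout nuclei. NFIA was seen in 80.5% of thinned sustentacular-like nuclei in the wild type library (unthinned 93.6%) and in 70.9% in the knockout library (unthinned 88.1%). In mature neuron-like nuclei the shares were 20.9% and 13.0% (unthinned 47.3% and 28.0%). NFIB was seen in 72.2% and 57.4% of thinned Bowman gland-like nuclei (unthinned 85.7% and 72.5%), against 8.70% and 10.5% of macrophage-like nuclei (unthinned 18.2% and 16.1%), which gives a guide to the share that free RNA in the droplets can reach at most. NFIA was seen in 37.7% and 36.8% of thinned macrophage-like nuclei, above its shares in mature neurons. The NFIB levels of mature neuron-like nuclei, 170 and 125 CPM, were also no higher than the 184 and 199 CPM of macrophage-like nuclei. The part of free RNA in these low neuronal values of NFIA and NFIB was not tested. Median depths before thinning were 3478 and 2163 UMIs in the Bowman gland-like and 2346 and 1370 in the macrophage-like class. NFIX was seen in 0.598% and 0.35% of thinned mature neuron-like nuclei (unthinned 1.78% and 1.39%). After thinning, 40.1% of wild type sustentacular-like nuclei (36.5 to 43.8) and 33.0% of knockout ones (29.2 to 37.1) held UMIs of at least 2 NFI genes, against 5.62% (4.16 to 7.41) and 2.80% (1.80 to 4.14) of mature neuron-like nuclei. NFIA and NFIB were seen together in 33.0% of the wild type sustentacular-like nuclei, where the product of their separate shares is 32.7%, and in 3.83% of the mature neuron-like nuclei, where that product is 3.23%.

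Along the neuronal lineage NFIA, NFIB and NFIX were highest in precursors or the first immature cluster and low in mature neurons, while NFIC changed less. The precursor-like class is cluster 12, with the neurogenic gene NEUROD1 and the cycling gene TOP2A among its markers. Immature neuron-like nuclei formed cluster 1, with TEX15 and PURG, and cluster 0, where the growth cone gene GAP43 stood at 1143 and 1045 CPM against 435 and 501 CPM in cluster 1. NFIA stood in the wild type library at 1268 CPM in precursor-like nuclei, 1016 CPM in cluster 1, 318 CPM in cluster 0 and 275 CPM in mature neuron-like nuclei. The knockout library gave 775, 607, 208 and 139 CPM in that order. Each level was lower than the one before it in both libraries. The last knockout step holds for the mature class as a whole. Its cluster 2 stood at 237 CPM, above cluster 0, and its cluster 6 at 109 CPM. In the wild type library these mature clusters stood at 285 and 99.7 CPM, both below cluster 0. Precursor-like over mature neuron-like nuclei gave a log2 ratio of 2.21 (2.08 to 2.33) in wild type nuclei and 2.48 (2.28 to 2.68) in knockout nuclei.

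NFIB did not stand above cluster 1 in the precursors of either library. It was at 576 CPM in wild type precursor-like nuclei, 594 CPM in cluster 1, 267 CPM in cluster 0 and 170 CPM in mature neuron-like nuclei. The knockout values were 403, 719, 226 and 125 CPM, so that cluster 1 was above the precursors there, and in the wild type library the intervals of these groups overlapped. NFIX stood at 55.1, 39.4, 8.15 and 4.72 CPM in the wild type library and at 31.0, 8.17, 6.90 and 4.27 CPM in the knockout library, with only 3 UMIs behind the knockout value of cluster 1. NFIC was higher in wild type precursor-like than mature neuron-like nuclei (log2 ratio 1.10, 0.72 to 1.47), and the knockout ratio of 0.48 had an interval that included 0 (-0.06 to 0.99). Immature over mature neuron-like nuclei gave NFIC ratios of -0.18 (-0.48 to 0.12) and -0.44 (-0.87 to -0.03), where NFIA gave 1.25 (1.15 to 1.35) and 1.02 (0.83 to 1.21) and NFIB 1.32 (1.19 to 1.45) and 1.35 (1.16 to 1.55).

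**Figure D3:**
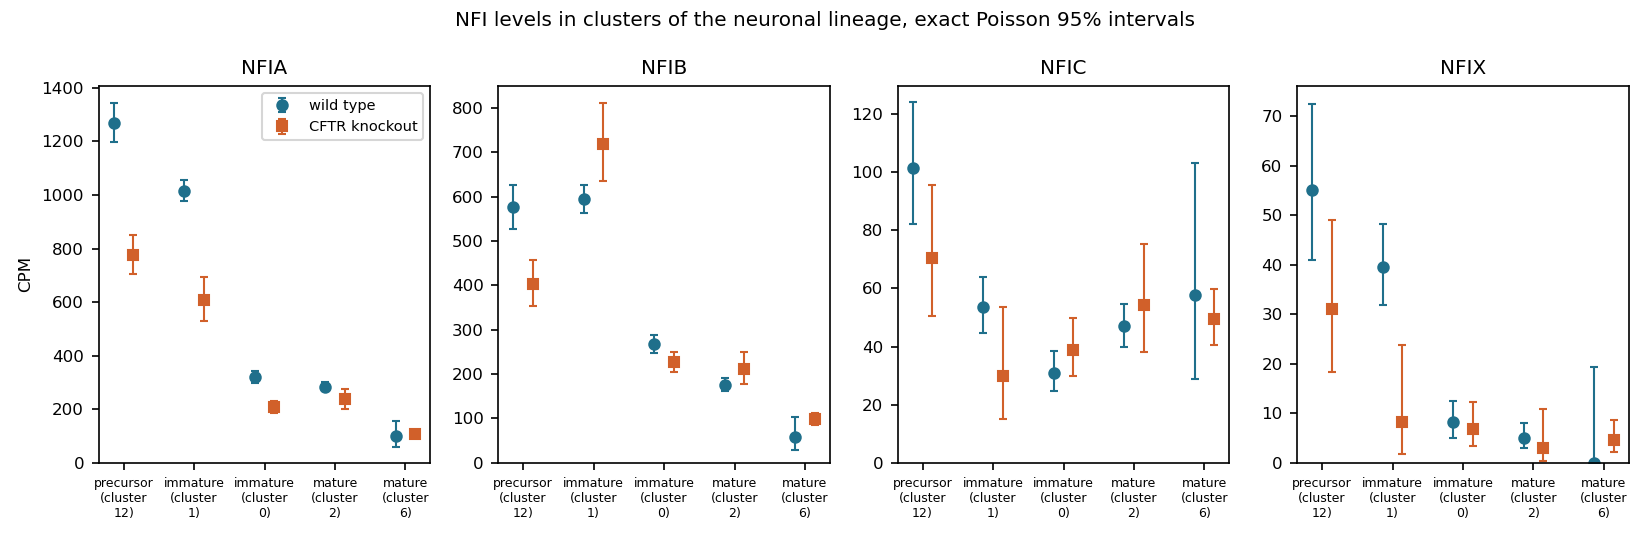
Levels of the 4 NFI genes in CPM (y axis, from 0, a separate range per panel) in clusters 12, 1, 0, 2 and 6 of the neuronal lineage. Circles are the wild type and squares the CFTR knockout library, with exact Poisson 95% intervals. NFIA is at 607 CPM or more in clusters 12 and 1 and at 318 CPM or less in clusters 0, 2 and 6, while NFIB in the knockout library is highest in cluster 1 at 719 CPM.

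Mature neurons were sorted by zone with NQO1, an oxidoreductase known as a marker of dorsal olfactory neurons, and NCAM2, an adhesion gene known as a marker of ventral ones. A nucleus with at least 1 NQO1 UMI and none of NCAM2 was called NQO1 type, and the converse NCAM2 type. Among the 843 wild type nuclei, 66 were NQO1 type, 540 NCAM2 type, 41 had both and 196 neither. Among the 864 knockout nuclei the numbers were 222, 212, 34 and 396. The NCAM2 type thus made up 64.1% of wild type and 24.5% of knockout nuclei. Of the NQO1-type nuclei, 32 and 123 rested on a single UMI, so the types are set by sparse counts and can misplace a nucleus. Whether they form separate populations was not tested. The median depths of NQO1-type and NCAM2-type nuclei were 3960 and 4038 UMIs in the wild type library and 2872 and 3430 UMIs in the knockout library.

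NFIA was higher in NCAM2-type than in NQO1-type mature neurons in both libraries. In the wild type library it stood at 328 CPM in NCAM2-type nuclei (305 to 351, 798 UMIs) and 124 CPM in NQO1-type nuclei (86.1 to 172, 35 UMIs). In the knockout library it stood at 244 CPM (211 to 281, 191 UMIs) and 83.1 CPM (63.3 to 107, 59 UMIs). The intervals of the types did not overlap in either animal, and the log2 ratios were 1.41 (0.92 to 1.94) and 1.55 (1.13 to 2.001). Nuclei with neither marker lay between, at 152 and 107 CPM.

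NFIB was also higher in NCAM2-type nuclei in both libraries. Wild type NCAM2-type nuclei held 206 CPM (188 to 225, 502 UMIs) and NQO1-type nuclei 28.3 CPM (12.2 to 55.7, 8 UMIs), a log2 ratio of 2.87 (1.88 to 4.09). Knockout NCAM2-type nuclei held 230 CPM (198 to 266, 180 UMIs) and NQO1-type nuclei 49.3 CPM (34.3 to 68.5, 35 UMIs), a log2 ratio of 2.22 (1.69 to 2.79). NFIB was seen in 272 of 540 wild type NCAM2-type nuclei and in 8 of 66 NQO1-type nuclei, and in the knockout library in 107 of 212 and 30 of 222. The NQO1-type level rests on few UMIs in the wild type library, which leaves its ratio known only within a wide range. With nuclei thinned to 1000 UMIs the NFIB ratios were 1.25 and 2.56 and the NFIA ratios 1.72 and 2.01 (wild type and knockout). The difference between the NFIB and NFIA ratios was not tested, and their intervals overlapped in both libraries.

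NFIC showed no difference between the zone types that could be told from counting error. It stood at 47.2 CPM in NCAM2-type and 60.0 CPM in NQO1-type nuclei of the wild type library (log2 ratio -0.35, -1.09 to 0.48) and at 52.4 and 47.9 CPM in the knockout library (0.13, -0.56 to 0.83). In ratios, the knockout interval runs from 0.677 to 1.78. After thinning to 1000 UMIs the wild type log2 ratio was 0.74. NFIX gave 7 UMIs in NCAM2-type and 0 in NQO1-type nuclei of the wild type library, and 3 and 4 UMIs in the knockout library, too few for a comparison; the count of 0 allows a level of up to 13.0 CPM. A difference between zones in NFIX was therefore not detectable at this depth.

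**Figure D4:**
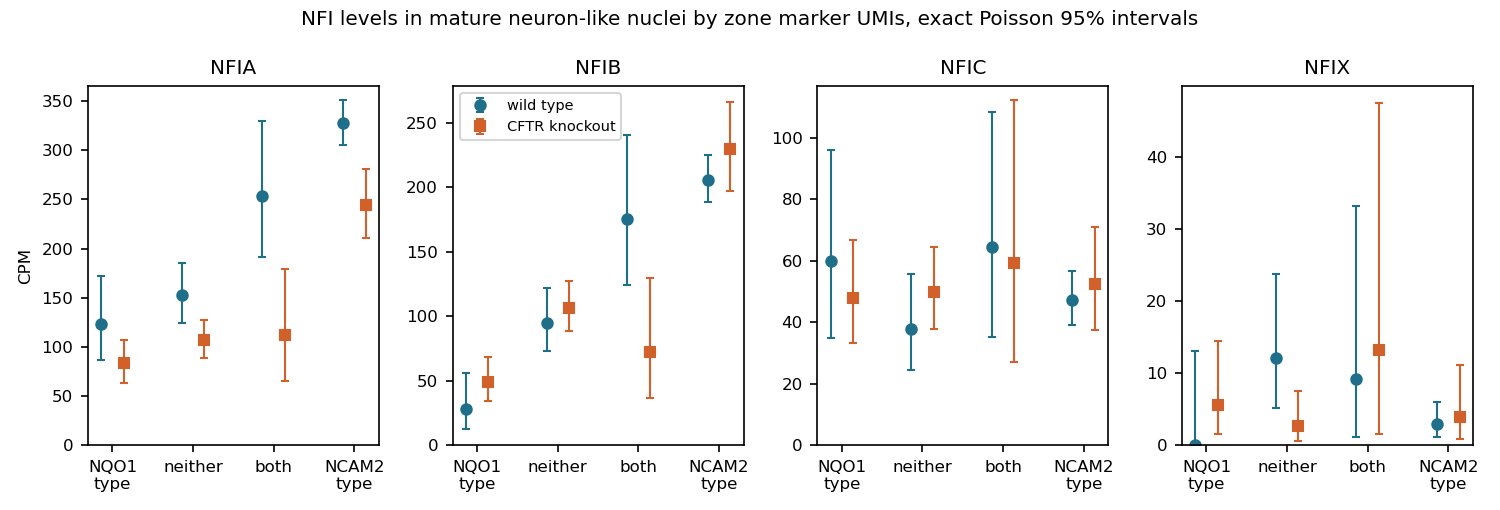
Levels of the 4 NFI genes in CPM (y axis, from 0, a separate range per panel) in mature neuron-like nuclei of NQO1 type, with neither marker, with both, and of NCAM2 type. Circles are the wild type and squares the CFTR knockout library, with exact Poisson 95% intervals. NFIA and NFIB are higher in NCAM2-type than NQO1-type nuclei in both libraries (NFIB 206 against 28.3 CPM and 230 against 49.3 CPM), and the NFIC intervals overlap.

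Across all genes with at least 20 UMIs over both types, 9.12% of 9890 genes were at least 2-fold higher in NCAM2-type nuclei of the wild type library and 2.62% of 8402 genes in the knockout library. Of the 8281 genes measured in both libraries, 58 (0.7%) passed in both, and NFIA and NFIB were 2 of these 58. No NFI gene was at least 2-fold lower, where 3.05% and 2.63% of genes were in the single libraries and 0.278% in both. Ordered by the lower of the ratios from the 2 libraries, NFIB stood 9th, NFIA 30th and NFIC 5554th of 8281 genes. NRP2, a semaphorin receptor known as a ventral marker, stood 4th, with 167 against 17.7 CPM in the wild type library (log2 ratio 3.25) and 126 against 16.9 CPM in the knockout library (2.90). Genes known as dorsal markers went the other way. ACSM4, an acyl-CoA synthetase, had log2 ratios of -1.87 (-2.32 to -1.40) and -2.10 (-2.66 to -1.57), and the axon guidance receptor ROBO2 -0.79 and -0.81. These markers did not take part in choosing the types.

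The zone difference was also measured within narrower groups. In nuclei with no GAP43 UMI, which leaves out the least mature, the log2 ratios were 1.12 and 1.36 for NFIA and 2.97 and 2.23 for NFIB (wild type and knockout). The mature class consists of cluster 2, with 781 wild type and 153 knockout nuclei, and cluster 6, with 62 and 711. Cluster 2 held more NFIA than cluster 6 (285 against 99.7 CPM in wild type nuclei, 237 against 109 CPM in knockout nuclei) and more NFIB (176 against 57.7 CPM and 211 against 97.9 CPM). Within wild type cluster 2 the ratios between zone types were 1.16 (0.63 to 1.73) for NFIA and 2.40 (1.41 to 3.62) for NFIB, and within knockout cluster 6 they were 1.59 (1.05 to 2.13) and 2.10 (1.51 to 2.73). Within knockout cluster 2, where only 10 nuclei were NQO1 type, NFIA gave -0.09 (-0.98 to 0.96, 11 UMIs in the NQO1 type), so the NFIA difference was not seen there. The NFIB ratio between the same nuclei was 3.21.

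NFI levels were also read against the number of NCAM2 UMIs after thinning each mature neuron-like nucleus to 1000 UMIs. In the wild type library NFIA stood at 217 CPM in the 484 nuclei without an NCAM2 UMI, 338 CPM in the 204 with 1, and 366 CPM in the 148 with 2 or more. The knockout library gave 122 CPM in 723 nuclei, 170 CPM in 96 and 346 CPM in 37. NFIB was at 148, 195 and 202 CPM in the wild type library and at 105, 232 and 180 CPM in the knockout library. Nuclei with any NCAM2 UMI were thus above those with none for both genes. In the knockout library some of these intervals overlapped. For NFIA those with 1 UMI ran from 129 to 220 CPM, against 108 to 137 CPM with none. For NFIB those with 2 or more ran from 117 to 263 CPM, against 92.6 to 119 CPM with none. The NFIB intervals of nuclei with 1 and with 2 or more overlapped in both libraries. NFIC lay between 27.7 CPM (4 UMIs) and 58.7 CPM in these groups.

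Because sustentacular cells carry much NFIA, their markers were summed in the same nuclei. The 8 measured sustentacular markers summed to 354 CPM in NCAM2-type and 265 CPM in NQO1-type mature nuclei of the wild type library, and to 498 and 607 CPM in the knockout library. All 8 were detected in each type except GLDN, at 0 in the wild type NQO1 type. In sustentacular-like nuclei the sum was 3731 and 3534 CPM. The part of sustentacular RNA in the zone ratios was not tested. Summed levels alone cannot tell fewer nuclei with NFI RNA apart from less NFI RNA per nucleus. Odorant receptor genes with symbols were too sparse to place NFI by receptor class. Only 6 wild type and 12 knockout nuclei held UMIs of class I receptors alone, a class known for dorsal neurons, with 9 and 2 NFIA UMIs, and 30 and 35 nuclei held class II receptors alone, with 45 and 19 NFIA UMIs.

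In immature neuron-like nuclei the zone types gave opposite directions in the libraries. In the knockout library NFIA stood at 432 CPM in 221 NCAM2-type and 143 CPM in 51 NQO1-type nuclei (log2 ratio 1.59, 1.06 to 2.18), and NFIB at 498 and 115 CPM (2.12, 1.53 to 2.78). In the wild type library NFIA stood at 608 CPM in 614 NCAM2-type and 1107 CPM in 30 NQO1-type nuclei (-0.87, -1.05 to -0.68), and NFIB at 438 and 558 CPM (-0.35, -0.60 to -0.09). Of those 30 wild type nuclei, 15 lay in cluster 1, with a median of 9834 UMIs against 4978 in the NCAM2-type nuclei of that cluster. The sustentacular markers summed there to 2193 CPM in the NQO1-type and 604 CPM in the NCAM2-type nuclei, with all 8 detected in both. The part in the ratio of these markers, of depth and of doublets left after filtering was not tested. In knockout cluster 1 the sum was 1200 CPM in the NQO1-type and 354 CPM in the NCAM2-type nuclei, and NFIA stood at 113 and 718 CPM. Only 6 knockout nuclei of cluster 1 were NQO1 type, too few for a comparison. All 51 knockout NQO1-type immature nuclei together held 30 NFIA UMIs. The other 15 of the 30 wild type nuclei lay in cluster 0. The wild type ratios there were 0.70 (-0.08 to 1.62) for NFIA and 1.04 (0.10 to 2.18) for NFIB. The knockout ratios there were 1.17 (0.57 to 1.83) and 1.64 (0.96 to 2.39). The sustentacular sum in cluster 0 was 260 against 164 CPM in wild type nuclei and 236 against 292 CPM in knockout nuclei (NQO1 against NCAM2 type). The wild type direction in immature nuclei as a whole turned with the clustering, to log2 ratios for NFIA of 1.30 with all nuclei kept and 1.57 with each library clustered on its own.

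Stages were also compared within the NCAM2 type alone, where NFIA and NFIB were again lower in later neurons. In the wild type library NFIA was at 920 CPM in cluster 1, 366 CPM in cluster 0 and 328 CPM in mature nuclei, and in the knockout library at 718, 341 and 244 CPM. NFIB was at 590, 320 and 206 CPM in wild type nuclei and 935, 358 and 230 CPM in knockout nuclei. The sustentacular marker sum in these nuclei was 604, 164 and 354 CPM (wild type) and 354, 292 and 498 CPM (knockout), and its part in the NFI levels was not tested.

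Sustentacular-like nuclei fell into cluster 3, with CPM (here the carboxypeptidase M gene) and CYP2F1 among its leading genes, and cluster 4, with ACSM3 and GLDN. Cluster 4 also carried the dorsal marker ACSM4 at 335 and 440 CPM, against 61.2 and 61.0 CPM in cluster 3. The other dorsal markers did not follow it beyond counting error. NQO1 had log2 ratios of 0.21 and 0.47 (cluster 4 over cluster 3), ROBO2 -0.70 and -0.46, and SEMA3F -0.64 and -0.63. All of these intervals included 0. The ventral markers leaned lower in cluster 4, NCAM2 at -0.56 and -0.18 and NRP2 at -1.64 and -1.02, with intervals that also included 0. NRP2 had 3 against 28 UMIs in the wild type and 6 against 10 in the knockout library. ACSM4 alone therefore does not place cluster 4 in a zone. NFIA was lower in cluster 4, at 1495 against 2045 CPM in the wild type library (log2 ratio -0.45, -0.56 to -0.35) and 1188 against 1700 CPM in the knockout library (-0.52, -0.63 to -0.40). NFIX was at 8.20 against 49.2 CPM in the wild type library (-2.58, -4.24 to -1.31) and 17.8 against 33.0 CPM in the knockout library (-0.89, -1.87 to 0.04). NFIX in the wild type library was the only NFI value at least 2-fold lower in this comparison, where 6.37% of 9982 genes were, and none of the 4 passed in the knockout library, where 3.65% of 9272 genes did. None was 2-fold higher, against 2.65% and 4.57% of genes. NFIB was level in the wild type library (591 and 615 CPM, -0.06, -0.23 to 0.11) and lower in cluster 4 of the knockout library (384 and 601 CPM, -0.65, -0.85 to -0.45). NFIC differed in sign between the libraries, at 0.23 (-0.21 to 0.66) and -0.61 (-1.09 to -0.14). Split by ACSM4 alone, sustentacular-like nuclei with an ACSM4 UMI held less NFIA than those without, with log2 ratios of -0.26 (-0.36 to -0.17) and -0.35 (-0.47 to -0.23). ACSM4 itself differed between the clusters and the split was not made within a cluster. The shared direction is therefore not separate support. For NFIX this split gave -0.04 (-0.73 to 0.62) and -0.21 (-1.20 to 0.74), with no difference beyond counting error. Clustering used the other genes of these nuclei, so the clusters themselves are a description.

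Other classes also differed within. Bowman gland-like cluster 8, with SLC6A11, held more NFIB than cluster 14, with BPIFB4, at 1784 against 1295 CPM in the wild type library (log2 ratio 0.46, 0.31 to 0.61) and 1310 against 1022 CPM in the knockout library (0.36, 0.14 to 0.58). NFIA leaned the other way there, at -0.26 (-0.40 to -0.13) and -0.16 (-0.36 to 0.04). Among fibroblast-like nuclei, cluster 18, with COL12A1 and ABI3BP, held less NFIB than cluster 16, with LUM and DCN, at 990 against 1415 CPM and 996 against 1392 CPM (-0.52, -0.65 to -0.39, and -0.48, -0.66 to -0.31), and the intervals for NFIA, NFIC and NFIX included 0 in both libraries. Endothelial-like cluster 7, with MMRN1 and RELN among its leading genes, held more NFIA than cluster 10, with FLT1 and VWF, at 1470 against 673 CPM (1.13, 0.78 to 1.49) and 1637 against 1171 CPM (0.48, 0.24 to 0.73). NFIX in these vessels was at 100 against 48.5 CPM in wild type nuclei and 168 against 19.7 CPM in knockout nuclei, with 15 against 7 and 23 against 6 UMIs. The differences in NFIB among glands and fibroblasts had similar sizes in both animals.

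Lists of related genes were read in the same zone comparison. Of 25 genes known from odorant receptor choice and its chromatin, 24 were listed, and 21 had enough UMIs in the wild type and 20 in the knockout library. None was 2-fold higher or lower in either, where 9.12% and 2.62% of all genes were higher and 3.05% and 2.63% lower. The list had median log2 ratios of -0.04 and -0.13, beside 0.04 and -0.03 over all genes. EBF1, an olfactory neuron transcription factor, was at 1686 against 1431 CPM and 1557 against 1438 CPM (NCAM2 type against NQO1 type), and the stress-pathway factor ATF5 at 1258 against 1466 CPM and 1141 against 1343 CPM. Of 20 genes named in work on NFI factors in glia and neurons, 19 were listed and 8 and 7 had enough UMIs, with median log2 ratios of 0.14 and 0.11. One gene was 2-fold higher in each library, beside the same 9.12% and 2.62% of all genes, BRINP1 in the wild type (34.1 against 14.1 CPM, log2 ratio 1.27, -0.14 to 3.18) and the microtubule gene MAP2 in the knockout (71.5 against 26.8 CPM, 1.42, 0.65 to 2.25). APCDD1 was 2-fold lower in the knockout library alone (28.1 against 59.1 CPM, -1.07, -1.89 to -0.30). BRINP1 and APCDD1 were named after their values were seen. No gene of this list thus passed in the same direction in both libraries.

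Over all nuclei NFIA stood at 781 CPM in the knockout against 966 CPM in the wild type library (log2 ratio of knockout to wild type -0.31, -0.34 to -0.27). NFIB stood at 633 against 591 CPM (0.10, 0.06 to 0.14), NFIC at 83.8 against 75.2 CPM (0.16, 0.04 to 0.27) and NFIX at 45.6 against 49.3 CPM (-0.11, -0.26 to 0.03). None was 2-fold apart, in a comparison where 6.86% of 16106 genes were at least 2-fold higher and 3.02% at least 2-fold lower and the median gene was at 0.10. NFIB was thus at the median gene. Its sign turned with scaling, to -0.011 with DESeq2 size factors, and to -0.22 when the 7 classes of 100 or more nuclei in each library had equal weights, where NFIC also turned, to -0.12. NFIA and NFIX were below 0 under all of these.

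Within those 7 classes NFIA was lower in the knockout library in all 7, with intervals below 0 in 6, the exception being glia-like nuclei (-0.13, -0.28 to 0.03). The ratios ran from -1.21 (-1.34 to -1.08) in immature neuron-like nuclei to -0.13 in glia-like and fibroblast-like nuclei. NFIX was lower in all 7, with intervals below 0 in 4. NFIB was lower in 5, with intervals below 0 in these 5, and higher in fibroblast-like (0.11, 0.02 to 0.19) and glia-like nuclei (0.10, -0.20 to 0.40). NFIC had intervals that included 0 in all 7. Within single clusters some of these changed: NFIB in fibroblast-like clusters 16 and 18 was at -0.02 and 0.01, in sustentacular-like clusters 3 and 4 at -0.03 and -0.62, and in mature neuron clusters 2 and 6 at 0.26 (-0.01 to 0.53) and 0.76 (-0.11 to 1.79). NFIX in sustentacular-like clusters 3 and 4 was at -0.58 (-1.26 to 0.07) and 1.12 (-0.38 to 2.91), and in fibroblast-like clusters 16 and 18 at -0.30 and -0.20, with intervals that included 0 in all 4. NFIB in immature cluster 1 was higher in the knockout library (0.27, 0.08 to 0.46) and in cluster 0 lower (-0.24, -0.43 to -0.05). NFIA in those 2 immature clusters was at -0.74 and -0.61. The share of all genes that were lower or higher in as many of the 7 classes was not taken. The counts of classes are therefore a description and do not set the NFI genes apart from other genes.

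In the mature neurons the library ratio differed between the whole class and its zone types. Over the whole class NFIA stood at 139 against 275 CPM, a log2 ratio of -0.98 (-1.15 to -0.81). Within the NCAM2 type the ratio was -0.42 (-0.66 to -0.20) and within the NQO1 type -0.57 (-1.20 to 0.07), both nearer to 0 than over the class, whose NCAM2-type share differed as given above. Nuclei with neither marker gave -0.51 (-0.90 to -0.12) and those with both -1.18 (-2.06 to -0.37). Within clusters 2 and 6 the NFIA ratios were -0.26 (-0.52 to -0.02) and 0.13 (-0.55 to 0.89). NFIB over the class was at 125 against 170 CPM (-0.45, -0.64 to -0.25), while within the NCAM2 type it was at 230 against 206 CPM (0.16, -0.10 to 0.41) and within the NQO1 type at 49.3 against 28.3 CPM (0.80, -0.33 to 2.12). Nuclei with neither marker gave 0.17, and the 34 and 41 nuclei with both gave -1.27 (-2.39 to -0.28). A lower NFIB level in the knockout library was therefore seen only in the last of these 4 groups. In sustentacular-like nuclei NFIA was lower in the knockout library within both clusters, at -0.27 (-0.36 to -0.18) in cluster 3 and -0.33 (-0.46 to -0.20) in cluster 4.

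**Figure D5:**
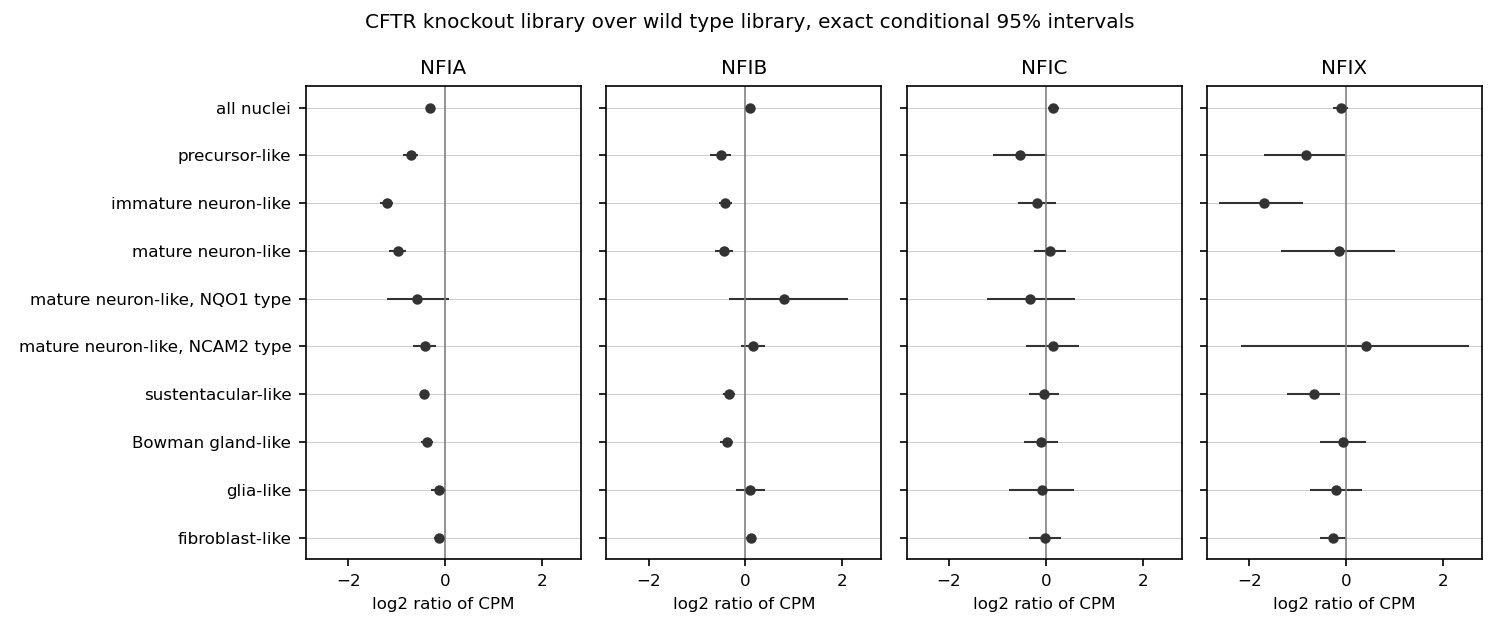
Log2 ratio of CPM, CFTR knockout library over wild type library (x axis), for the 4 NFI genes over all nuclei, in the same 7 classes, and in mature neuron-like nuclei of each zone type, with exact conditional 95% intervals for counting error. NFIX in the NQO1 type has no point because the wild type count was 0. NFIA lies below 0 in every group shown, while NFIB lies at -0.45 in mature neuron-like nuclei and at 0.16 in their NCAM2 type.

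The genes whose levels across classes were most like those of each member were found by Pearson's r of log2(CPM + 20) over 15 classes, in each library on its own, among 7820 genes. The points share depth and the makeup of the libraries, and the r values are a description. For NFIA they were SLC35D2, with r of 0.91 (wild type) and 0.90 (knockout), CTNND1, SUCLG2, TEX49 and MAML2. For NFIB they were YES1, with 0.87 and 0.86, ZBTB16, GULP1, YAP1 and RAI14. NFIC was most like ZNF217, with 0.85 and 0.82, ETV6, LBR, CTNNA1 and ERMP1, and NFIX most like ARHGAP42, with 0.89 and 0.81, YAP1, ZBTB16, FMO4 and PPFIBP1. YAP1 and ZBTB16 appeared for both NFIB and NFIX. Among the members, NFIA and NFIB were the pair most alike in the wild type library, with r of 0.80 there and 0.76 in the knockout library, and NFIC and NFIX the least alike, with 0.32 and 0.68.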

How the data were processed

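Single-nucleus RNA sequencing was done with 10x Genomics chemistry on frozen olfactory neuroepithelium, per the labels' protocols. Each deposited table holds raw UMI counts, as whole numbers, with genes in rows and nuclei in columns (4715 wild type barcodes with 18731495 UMIs, 6054 knockout barcodes with 16623086). Cell Ranger, Seurat 4.0 and R 4.0.2 are named in the submitters' processing notes. The sources used here give no aligner, genome build, annotation or use of strand, and antisense or overlapping transcripts cannot be told apart, and no coordinates or sequences are printed. The genotype labels set the groups.

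A minimum of 200 genes removed 1 wild type nucleus. Scrublet's own threshold marked 1 nucleus in each library, too few to have worked, so the highest scores were removed at 0.8% per 1000 nuclei (178 and 293). Counts scaled to 10000 per nucleus and log transformed, 2000 variable genes without the NFI genes, CFTR and mitochondrial transcripts, 30 components and 15 neighbours entered Leiden clustering (resolution 1, no integration) in Python 3.11.15 with python-igraph 0.11.9 and scanpy 1.11.5. A cluster's name needed 3 markers, each 1 or more log2 units over the other clusters' median (20 CPM added), in 5% of nuclei and at 50% of its highest level, and a median depth of 0.333 of its library's; the markers were of 18 cell types. Cluster 22 kept its number because foreign markers outnumbered its own in the 10 leading genes by fold.

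Ratios of CPM carry the exact conditional binomial 95% interval (SciPy 1.17.1), and shares the Clopper-Pearson interval; these cover counting error only. In counts of genes past 2-fold, a sum of 0 was set to 3 counts. With 2 libraries an exact test cannot give a p under 0.5, so none was run. The ratio script was tested on simulated data. The named genes were the 4 members, up to 4 genes with most UMIs per list, NQO1, NCAM2, and the 5 genes most like each member with at least 50 CPM in a class. Alternatives were other filters, clusterings, scalings (TMM from edgeR 4.0.16, size factors from DESeq2 1.42.0 under R 4.3.3), thinning and zone rules. Members and lists were chosen with earlier results of these data known.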

Additional observations from a re-analysis of the deposited data

Results flagged for a closer look

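The NFIA zone ratio of immature neuron-like nuclei pointed in opposite directions in the libraries, at -0.87 in the wild type and 1.59 in the knockout library on the log2 scale (NCAM2 type over NQO1 type). The NFIB ratio did so too, at -0.35 and 2.12. The wild type values rest on 30 NQO1-type nuclei. Of these, the 15 in cluster 1 had a median of 9834 UMIs and a sustentacular marker sum of 2193 CPM, and the part of doublets left after filtering was not tested. The difference between the libraries was not tested. The NFIB library ratio (knockout over wild type) was 0.11 in fibroblast-like nuclei, and went the other way in precursor-like (-0.51), immature neuron-like (-0.41), mature neuron-like (-0.45), Bowman gland-like (-0.39) and sustentacular-like nuclei (-0.34). The intervals for counting error did not include 0 in these 6 classes, but with 1 library per genotype the difference between classes was not tested. Within mature neuron clusters 2 and 6 the NFIB ratio was 0.26 and 0.76, and within fibroblast-like clusters 16 and 18 it was -0.02 and 0.01.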

How the results depend on the processing

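With 1 library per genotype, depth and the number of nuclei limit NFIX in neurons and every value of NQO1-type nuclei. No paired analysis was possible because each genotype has 1 library. The zone ratios of NFIA and NFIB in mature neurons stayed above 0 in all alternatives that gave a value except NFIA in knockout cluster 2 (-0.086). NFIB in wild type cluster 6 gave no value, and zone alternatives were not run for NFIX. The zone ratios moved beyond the counting interval for NFIA in wild type cluster 6 (2.16) and in thinned knockout nuclei (2.01). For NFIB they did so in thinned wild type nuclei (1.25) and in knockout cluster 2 (3.21). NFIC moved to 0.74 in thinned wild type nuclei and -0.77 in knockout cluster 2. Sustentacular over mature neuron ratios moved for NFIA to 2.92 (wild type, mean over nuclei) and for NFIC to 1.39 (knockout, thinned). The library ratio over all nuclei was, for NFIA, -0.39 by mean over nuclei, -0.27 thinned, -0.42 with DESeq2 size factors, -0.40 with TMM and -0.41 with equal class weights. For NFIB it was -0.020, 0.093, -0.011, 0.0060 and -0.22, for NFIC 0.29 thinned and -0.12 with equal weights, and for NFIX -0.32 with equal weights. Against scaling by total UMIs, the log2 scaling factor of knockout over wild type was higher by 0.09 with TMM and by 0.11 with DESeq2 size factors. Every library ratio is lower by that amount under these scalings. Shares with a UMI at 500 UMIs were 31.0% and 26.0% for NFIA (wild type, knockout), 22.8% and 22.1% for NFIB, 3.92% and 3.98% for NFIC and 2.58% and 2.76% for NFIX. In wild type immature neurons the zone ratio of NFIA turned to 1.30 with all nuclei kept, 0.53 at resolution 0.5, 1.06 at resolution 2 and 1.57 with libraries clustered apart, and that of NFIB to 1.45, 1.54, 1.52 and 1.42, to 0.39 by mean over nuclei and 1.34 thinned. Of 392 class levels, 338 stayed within the counting interval. The cause of these moves was not tested. Clusters 2 and 6 and nuclei without GAP43 were chosen as alternatives after seeing the data.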
